A study of Mus musculus with 12 samples.

Results

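Amino acid supply and the transcriptional response to its shortage were described through 43 genes in *Kdm5c* control and mutant epiblast-like cells (EpiLCs). The genes were chosen by name from what they are known to do. All 43 were among the 22911 genes of both deposited tables. They comprised 11 stress transcription factors and regulators, 6 enzymes of asparagine, alanine, proline and cysteine synthesis, 6 enzymes of serine and glycine synthesis and one-carbon metabolism, 2 enzymes that break down glycine and threonine, 8 amino acid transporters and 10 tRNA synthetases.

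When amino acids run short, or when proteins misfold in the endoplasmic reticulum, kinases phosphorylate the translation factor eIF2. Protein synthesis then slows in general, while the mRNA of *Atf4* is translated more. ATF4 protein pairs with C/EBP factors and switches on genes that make amino acids, import them and charge them onto tRNAs. In mouse pluripotent stem cells, threonine dehydrogenase additionally turns threonine into glycine, which feeds the one-carbon units used for nucleotide synthesis and methylation.

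RNA-Seq was performed on mouse EpiLCs, which resemble the early post-implantation epiblast. Embryonic stem cells (ESCs) had been kept without feeders in medium with LIF and inhibitors of GSK3 and MEK, and were then grown for 48 h with FGF2 and Activin A on fibronectin. The 4 genotypes were female *Kdm5c* fl/fl and male *Kdm5c* fl Y, the controls, and female *Kdm5c* Δ/Δ and male *Kdm5c* ΔY, the mutants. *Kdm5c* is an X-linked gene for a demethylase of histone H3 lysine 4, and the Δ allele lacks the exons of its catalytic domain. The controls carry loxP sites in both copies in females and in the single copy in males, and are labelled as wild type. The strain is labelled as C57BL/6J for all samples. Each genotype was represented by 3 ESC lines, derived from blastocysts on fibroblast feeders, and by 3 libraries, 12 in all. A gene's level is given as its normalized count, that is, its reads divided by the size factor of the library.

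The deposited tables hold the mean of each genotype. From these means, whole reads per library could be solved for 22827 genes, including all 43 members, and they amounted to 5588532 to 11248014 reads per library. The libraries are called A, B and C within a genotype. Which ESC line each came from is not known, and the letters pair nothing across genotypes. All pairs of libraries of 1 genotype differed by more than counting noise, with a chi-square of 1.98 to 29.8 per degree of freedom. The highest values belonged to 2 libraries that stood apart from both others of their genotype, *Kdm5c* fl Y library B and *Kdm5c* ΔY library A. *Kdm5c* fl Y libraries A and C had reads on 64.0% and 58.6% of 4982 genes that were silent in the other genotypes, at 2.55 and 2.15 reads per gene with reads, against 4.78% to 8.48% of the corresponding genes in the other 10 libraries. Male results are therefore given with and without library B of *Kdm5c* fl Y and library A of *Kdm5c* ΔY. These 2 were picked because they differed, so the libraries kept lie closer together. Their chi-square was 2.32 in *Kdm5c* fl Y and 2.62 in *Kdm5c* ΔY. Adjusted p-values without the 2 libraries can be too small through that choice and are no independent support. *Kdm5c* itself had normalized counts of 2336, 2429 and 2315 in control and 1406, 1447 and 1505 in mutant females, and 2195, 2110.1 and 2371 in *Kdm5c* fl Y and 1897, 1943 and 1976 in *Kdm5c* ΔY libraries. It fell in females (log2 fold change -0.70 ± 0.053 SE, adjusted p = 4.47e-09), but the male difference did not pass the test (-0.20 ± 0.10 SE, adjusted p = 0.271). These counts sum over the whole gene and are therefore no direct check of the deleted exons.

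Markers of cell states moved with genotype and with the libraries that stood apart. All 9 genes of the naive pluripotency list had reads in every genotype, and their sum was 1143 to 1190 in *Kdm5c* fl/fl, 3319.7 to 3482 in *Kdm5c* Δ/Δ, 1505 to 2670.4 in *Kdm5c* fl Y and 4479 to 7620.1 in *Kdm5c* ΔY libraries. The 10 endoderm genes, all with reads in every genotype, summed to 547 to 604, 6724 to 6935, 2979 to 5423 and 945 to 6270.2 in the same order. Both libraries that stood apart differed in these lists, as the plot of marker lists shows. *Kdm5c* ΔY library A had an endoderm sum of 945 where libraries B and C had 6146 and 6270.2, and *Kdm5c* fl Y library B had 5423 where A and C had 3111 and 2979. The 9 distinct genes of the epiblast-like list summed to 12728 to 13048, 17210.3 to 17593, 14590 to 22604 and 10165 to 14143, with none at 0. These genes did not all move with their sum. In females, *Dnmt3b*, *Sox2*, *Utf1*, *Otx2* and *Lef1* were higher in all mutant than in all control libraries. *Pou5f1*, *Sall2* and *Pou3f1* were lower, and *Fgf5* overlapped. The 8 fibroblast genes, all with reads in every genotype, summed to 2442 to 2506, 1021 to 1069.7, 717 to 969.7 and 4417 to 4833. *Fbn1* of this list was higher in female mutants (245 to 274) than in their controls (176 to 203), against the sum. Sums over the 6 mesoderm and primitive streak genes were 333 to 359, 319.7 to 374, 236 to 253 and 465 to 1184, with *Mesp1* at 0 in *Kdm5c* fl/fl and *Kdm5c* ΔY libraries. The close female sums hide opposite moves. *T* was 82.5 to 114 in control and 5.89 to 18.2 in mutant females, and *Hand1* was 44.5 to 58.3 and 90.1 to 118. In males, *Hand1* was 17.9 to 25.8 in controls and 333 to 902 in mutants, where it made up most of the sum. Sums over the 5 neural genes were 2296 to 2521, 1726 to 1780.3, 1164 to 1342 and 903 to 2122, with *Neurog2* at 0 in *Kdm5c* fl/fl libraries. Most of each neural sum was *Nes*, while *Sox1* was 197 to 230 in control and 18.2 to 35.3 in mutant females. The part of these cell states in the results below was not tested. In such bulk samples, fewer cells of a type and less RNA per cell cannot be told apart.

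**Figure D1:**
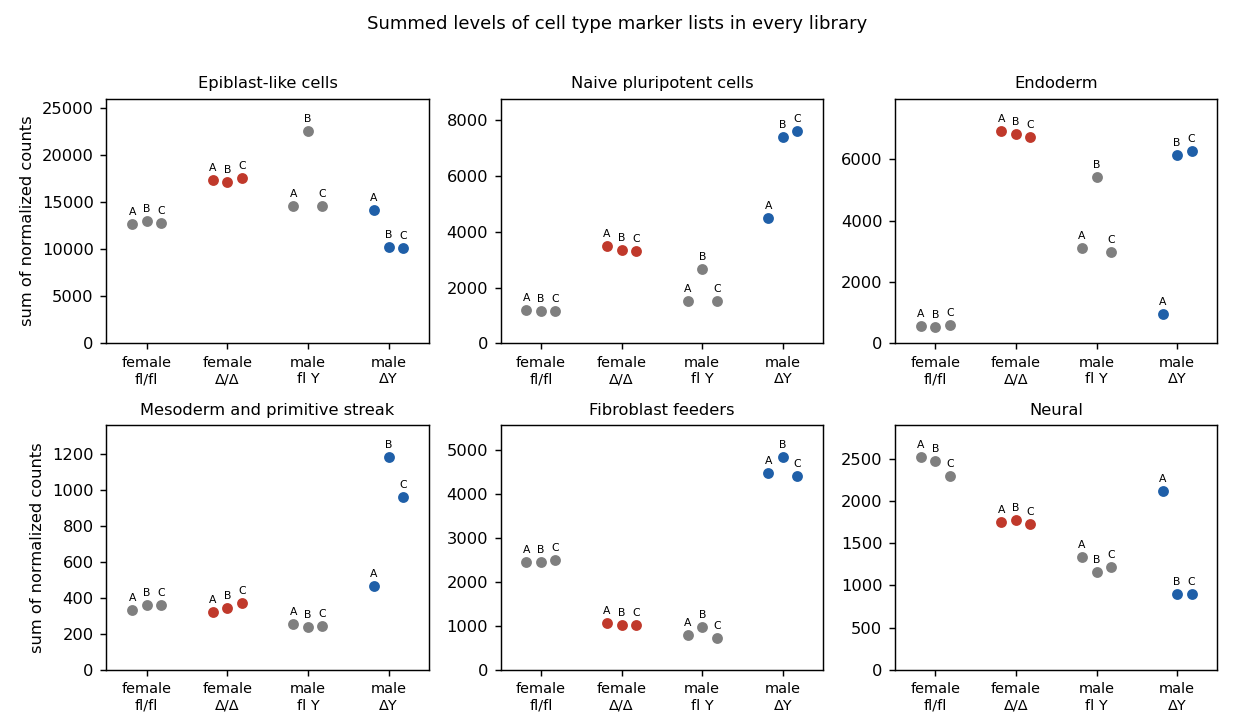
Summed normalized counts of 6 lists of cell type markers (y axes, from 0) in each of the 12 libraries, by genotype (x axes), with the library letter above each point. *Kdm5c* ΔY library A lies far below libraries B and C in the endoderm list, at 945 against 6146 and 6270.2, and *Kdm5c* fl Y library B lies above A and C in the naive, epiblast-like and endoderm lists.

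In females, 31 of the 43 members changed in limma's test of mutant against control libraries, at an adjusted p under 0.05 over all genes tested. Of these, 14 rose in the female mutant and 17 fell. Of all genes tested, 25.4% were higher and 24.7% lower. The median log2 fold change of the members was -0.08, and that of all genes was 0.00. In males, 14 members were higher and 1 was lower in *Kdm5c* ΔY EpiLCs, where 4.2% of all genes were higher and 3.6% lower. The median log2 fold change was 0.42 for the members and -0.16 for all genes. Without *Kdm5c* fl Y library B and *Kdm5c* ΔY library A, 27 members were higher and 4 lower in males, beside 17.7% and 25.3% of all genes. In that smaller fit, the median was 0.47 for the members and -0.22 for all genes. All log2 fold changes are on the scale of log2(normalized count + 1), which understates the change of low genes. All genes tested include genes with few reads, while every member had reads in all libraries. *Kdm5c* fl Y libraries A and C had reads on 64.0% and 58.6% of 4982 genes silent in the other genotypes. The part of such genes in the shares and medians of all genes was not tested. The members were not set against genes of like level. With a minimum mean of 10, 9173 genes passed in females and 1756 in males, against 9812 and 1706 without it.

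The male counts depended on single libraries. With *Kdm5c* fl Y library A or C left out, 3 members passed the test, and with *Kdm5c* fl Y library B left out 23 did. Leaving out *Kdm5c* ΔY library A, B or C gave 19, 6 and 5. Of the 15 male calls, 3 held whichever library was left out, those of *Atf4*, *Asns* and *Trib3*. Another 9, of *Tdh*, *Cth*, *Gpt2*, *Aldh18a1*, *Ddit4*, *Nupr1*, *Slc3a2*, *Aars* and *Sars*, held in 2 of the 6 fits with a library left out, those without *Kdm5c* fl Y library B or *Kdm5c* ΔY library A. In females, 29 of the 31 calls held, and *Psat1* and *Slc3a2* lost theirs in some of these fits.

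Females and males shared a direction for 6 members that passed the test in both sexes, namely *Tdh*, *Chac1*, *Atf4*, *Nupr1* and *Slc3a2*, which were higher in both mutants, and *Ddit4*, which was lower in both. Another 6 members passed in both sexes with opposite signs, lower in *Kdm5c* Δ/Δ and higher in *Kdm5c* ΔY EpiLCs. These were *Asns*, *Psat1*, *Mthfd2*, *Cth*, *Gpt2* and *Sars*. Each of them was also lower in control males than in control females. Mean counts of *Mthfd2* were 1402 and 504 in control females and males, and 1035 and 1028 in female and male mutants. Those of *Gpt2* were 775 and 473 in controls, and 418 and 671 in mutants. The part of the difference between the controls in the opposite signs was not tested. The shares of all genes that passed in both sexes, with the same or with opposite signs, were not worked out. Neither count of 6 can therefore be set against all genes. The female and the male change themselves differed, by the interaction term of a limma fit over all 12 libraries, for 23 of the 43 members, where 21.3% of all genes did. In 18 of the 23, the male change was the higher one. Without the 2 libraries that stood apart, 36 members differed so, beside 45.7% of all genes.

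**Figure D2:**
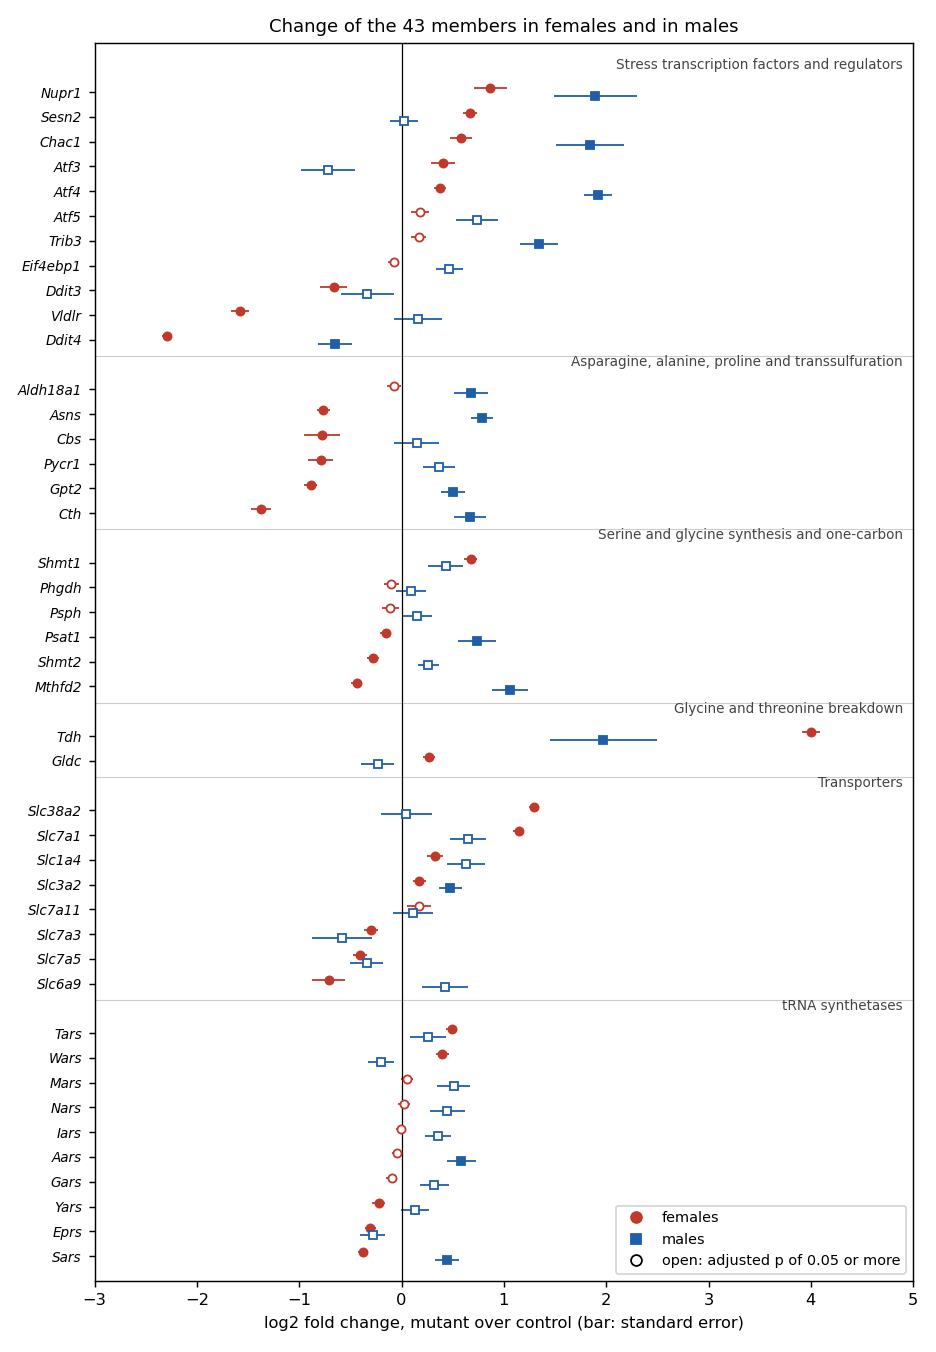
Log2 fold change of mutant over control (x axis) for each of the 43 members (y axis, by role and by falling female change), with bars of 1 standard error, in females (circles) and males (squares). Filled symbols mark an adjusted p under 0.05. The 6 enzymes of asparagine, alanine, proline and cysteine synthesis all lie left of 0 in females and right of 0 in males, and the male bars are wider than the female ones for most members.

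*Atf4*, the factor at the head of the response, was higher in both mutants. Its normalized counts were 1627, 1693 and 1792 in *Kdm5c* fl/fl libraries and 2139, 2104 and 2402 in *Kdm5c* Δ/Δ libraries. In males they were 482, 617 and 456 in *Kdm5c* fl Y and 2062, 1862 and 1931 in *Kdm5c* ΔY libraries. The genotypes did not overlap in either sex, and the *Kdm5c* fl Y libraries were the lowest of all 12. *Atf4* rose 1.3-fold in females (log2 fold change 0.38 ± 0.061 SE, adjusted p = 4.76e-05) and 3.79-fold in males (1.92 ± 0.14 SE, adjusted p = 0.000137). The male change exceeded the female one by 1.55 ± 0.15 SE, adjusted p = 1.4e-05. Over the 6 male fits that each left out a library, the adjusted p of *Atf4* was 3.4e-05 to 0.00617. A change in *Atf4* mRNA says nothing of its translation, which was not measured.

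Of the related factors, *Atf3* rose and *Ddit3* fell in females, and none of *Atf5*, *Atf3* and *Ddit3* passed in males with all libraries. *Atf5* encodes a relative of ATF4 that is controlled through translation in a like manner, and its counts were 346, 274 and 278 in control females, 357, 317 and 339.5 in mutant females, 121, 194 and 132 in control males and 282, 224 and 229.6 in mutant males. Its genotypes overlapped in females but not in males, and neither change passed the test (0.18 ± 0.091 SE, adjusted p = 0.113 in females and 0.74 ± 0.21 SE, adjusted p = 0.0588 in males). Without the 2 libraries that stood apart, the male change was 0.84 (adjusted p = 0.0015). *Atf3*, an early stress factor, had counts of 98.6, 95.5 and 91.2 in control females, 129, 122 and 127 in mutant females, 69.8, 58.9 and 74.7 in control males and 50.3, 36.5 and 36.2 in mutant males. The mutants lay above the controls in females and below them in males. *Atf3* rose in females (0.41 ± 0.12 SE, adjusted p = 0.00679), had a log2 fold change of -0.72 ± 0.26 SE, adjusted p = 0.128 in males, and differed between the sexes by -1.13 ± 0.24 SE, adjusted p = 0.00465. It fell in males without both libraries that stood apart (-0.97, adjusted p = 0.00697). *Ddit3*, which encodes the pro-apoptotic factor CHOP, had counts of 154, 131 and 115 in control females, 78.4, 83.3 and 87.9 in mutant females, 195, 142 and 217 in control males and 98.2, 180.4 and 168 in mutant males. It was lower in every *Kdm5c* Δ/Δ library than in any *Kdm5c* fl/fl library (-0.66 ± 0.13 SE, adjusted p = 0.000381), while the male genotypes overlapped (-0.34 ± 0.26 SE, adjusted p = 0.433).

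*Chac1*, *Trib3* and *Nupr1* were higher in *Kdm5c* ΔY EpiLCs. *Chac1* encodes an enzyme that degrades glutathione, and its counts were 137, 107 and 122 in control females, 178, 178 and 190 in mutant females, 31.9, 76.5 and 38.8 in control males and 219.9, 135 and 154 in mutant males. All mutant libraries lay above the controls of their sex, and *Kdm5c* ΔY library A was the highest of all. It rose 1.49-fold in females (0.58 ± 0.11 SE, adjusted p = 0.000243) and 3.58-fold in males (1.84 ± 0.33 SE, adjusted p = 0.0126), the latter in 4 of the 6 fits with a library left out, all but those without *Kdm5c* fl Y library A or C. The interaction term was 1.26 ± 0.37 SE, adjusted p = 0.0279, and it held in 5 of 12 such fits, with an adjusted p of 0.00137 to 0.0712.

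*Trib3*, a pseudokinase that binds ATF4, had counts of 245, 251 and 248 in control and 277, 285 and 274 in mutant females. In males, they were 129.6, 181 and 126 in *Kdm5c* fl Y and 316, 370 and 417 in *Kdm5c* ΔY libraries. The female groups were separate but close (0.17 ± 0.077 SE, adjusted p = 0.0803), while the male mutants were well above their controls (1.34 ± 0.18 SE, adjusted p = 0.00372). The changes of the sexes differed by 1.17 ± 0.20 SE, adjusted p = 0.000831. *Nupr1* encodes a small stress-induced chromatin protein and was low, with counts of 42.3, 53.8 and 46.7 in control females, 100.3, 84.2 and 78.8 in mutant females, 22.9, 34.1 and 12.9 in control males and 56, 107 and 96.2 in mutant males, from as few as 9 reads in a *Kdm5c* fl Y library. Mutants and controls did not overlap in either sex. *Nupr1* rose in females (0.87 ± 0.16 SE, adjusted p = 0.000232) and in males (1.89 ± 0.40 SE, adjusted p = 0.0234), and the male change was 2.49 (adjusted p = 0.00107) without both libraries that stood apart. The male call held in 2 of the 6 fits with a library left out.

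*Ddit4*, an inhibitor of mTORC1 that also answers to hypoxia and p53, fell in both sexes. Its counts were 10219.6, 10257 and 10878 in *Kdm5c* fl/fl libraries and 2114, 2149 and 2143 in *Kdm5c* Δ/Δ libraries, and 9476, 6421 and 9804 in *Kdm5c* fl Y and 5413, 5215 and 5486 in *Kdm5c* ΔY libraries. All mutants were below the controls of their sex, and *Kdm5c* fl Y library B was the lowest male control. It was 4.89-fold lower in *Kdm5c* Δ/Δ EpiLCs (-2.29 ± 0.052 SE, adjusted p = 3.53e-16) and 1.57-fold lower in *Kdm5c* ΔY EpiLCs (-0.65 ± 0.16 SE, adjusted p = 0.0428). The male call held in 2 of the 6 fits with a library left out, and the changes differed between the sexes by 1.64 ± 0.18 SE, adjusted p = 3.27e-05. *Sesn2*, which encodes a leucine sensor that restrains mTORC1, moved the other way in females, with counts of 453, 479.8 and 450.2 in *Kdm5c* fl/fl libraries and 744, 671 and 791 in *Kdm5c* Δ/Δ libraries (0.67 ± 0.070 SE, adjusted p = 2.45e-07). The male counts of 548, 624 and 494 in controls and 629.8, 548 and 518 in mutants overlapped (0.03 ± 0.14 SE, adjusted p = 0.911), and the interaction term was -0.64 ± 0.15 SE, adjusted p = 0.00779.

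*Vldlr*, a lipoprotein receptor whose gene ATF4 can induce, had counts of 349, 328 and 340.2 in *Kdm5c* fl/fl libraries and 118, 107 and 113 in *Kdm5c* Δ/Δ libraries, against 304, 167 and 322 in *Kdm5c* fl Y and 294, 264 and 295 in *Kdm5c* ΔY libraries. The female mutants were far below their controls, whereas the male genotypes overlapped and *Kdm5c* fl Y library B was the lowest. *Vldlr* fell 2.99-fold in females (-1.58 ± 0.089 SE, adjusted p = 7.49e-11), had a log2 fold change of 0.16 ± 0.23 SE, adjusted p = 0.671 in males, and differed between the sexes by 1.74 ± 0.27 SE, adjusted p = 0.000435. *Eif4ebp1* encodes an inhibitor of cap-dependent translation, with counts of 2181, 2144 and 2220.1 in control females, 2204, 2006 and 2004 in mutant females, 1265, 1571 and 1256 in control males and 1710, 1919.8 and 2012 in mutant males. Its libraries overlapped in females (-0.08 ± 0.055 SE, adjusted p = 0.278) but not in males, where the change did not pass the test (0.47 ± 0.13 SE, adjusted p = 0.0569). It passed without both libraries that stood apart (0.64, adjusted p = 0.000253), and the interaction term over all 12 libraries was 0.54 ± 0.14 SE, adjusted p = 0.0121.

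**Figure D3:**
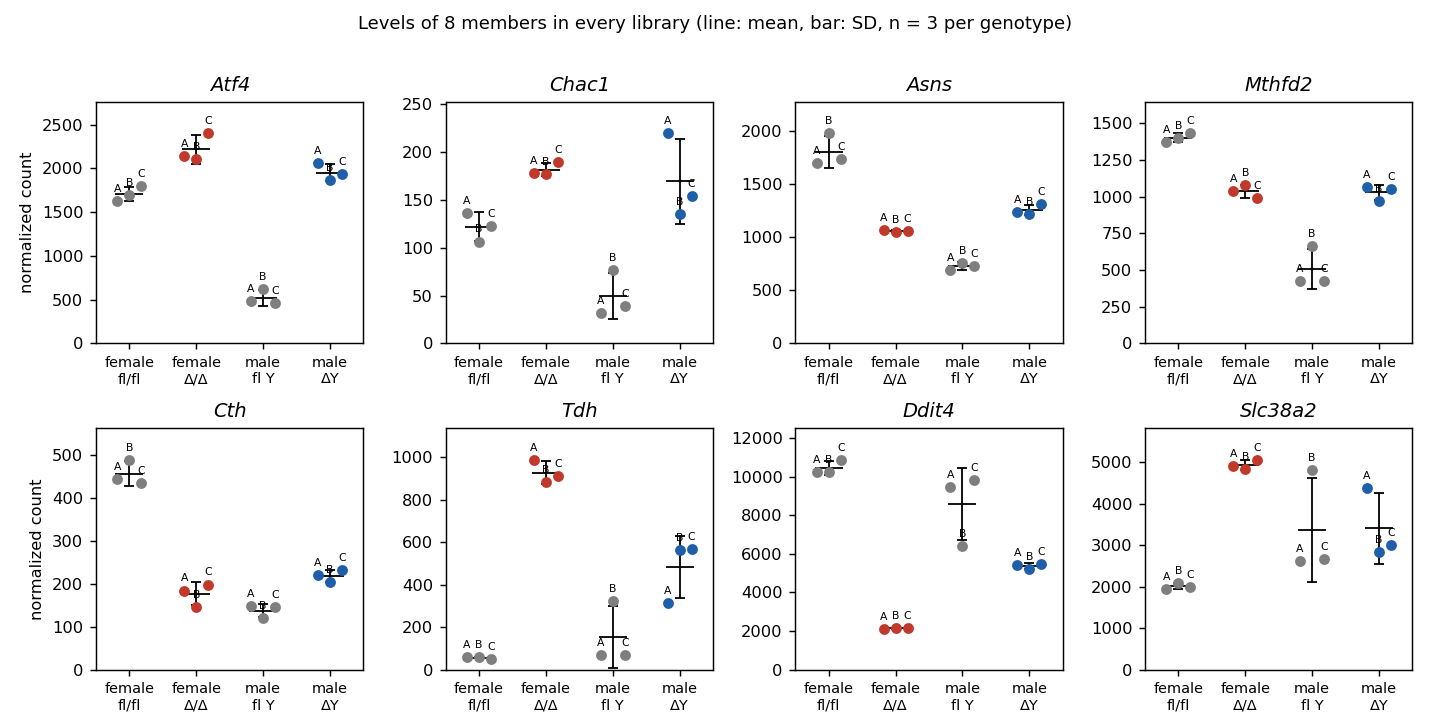
Normalized counts (y axes, from 0) of 8 members in each of the 12 libraries by genotype (x axes), with the library letter at each point, lines at the mean and bars of 1 SD (n = 3 libraries). *Atf4* is lowest in the *Kdm5c* fl Y libraries (456 to 617) and above the *Kdm5c* fl/fl range (1627 to 1792) in all mutant libraries, while *Asns* and *Cth* are highest in the *Kdm5c* fl/fl libraries.

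Promoters of the members were searched for the C/EBP-ATF response element, the composite site that ATF4 binds together with C/EBP partners, written as TGATGNAA on either strand. RefSeq promoters of GRCm38.p6, from 250 bases before to 50 after the start, could be matched for 36 of the 43 members. The element was in 14 of these (38.9%), against 4.51% of the 27025 genes with a promoter and 3.97% of all 32851 promoters. The members were chosen by name as genes of this response, some of them known targets of ATF4. The excess is therefore tied to that choice and is no result of these data. The 7 not matched were *Tdh*, *Cth*, *Eif4ebp1*, *Slc7a3*, *Slc7a5*, *Nars* and *Wars*. The 14 were *Asns*, *Pycr1*, *Chac1*, *Trib3*, *Atf3*, *Nupr1*, *Vldlr*, *Slc7a11*, *Slc1a4*, *Aars*, *Gars*, *Iars*, *Tars* and *Yars*. Windows of 30 bases around the element are shown for a gene that was lower in female and higher in male mutants, for 4 regulators, and for a transporter and a synthetase, *Slc7a11* and *Gars*, which passed in neither sex. Each is written 5′ to 3′ on the strand of its gene, with the element in capitals.
Asns, chr6:7693214-7693243, - strand: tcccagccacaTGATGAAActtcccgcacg
Chac1, chr2:119351038-119351067, + strand: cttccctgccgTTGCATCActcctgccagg
Atf3, chr1:191183425-191183454, - strand: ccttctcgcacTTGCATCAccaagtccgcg
Nupr1, chr7:126625562-126625591, - strand: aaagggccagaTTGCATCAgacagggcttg
Vldlr, chr19:27216809-27216838, + strand: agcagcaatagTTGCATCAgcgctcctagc
Slc7a11, chr3:50443661-50443690, - strand: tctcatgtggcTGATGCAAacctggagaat
Gars, chr6:55037960-55037989, + strand: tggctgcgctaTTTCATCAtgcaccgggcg
These windows lie wholly upstream of the start, with the element at 23 to 16 bases before it in *Asns*, 193 to 186 in *Chac1*, 110 to 103 in *Atf3* and *Nupr1* and 200 to 193 in *Vldlr*. The promoter of *Slc7a11* holds a second copy. Of the 14 members with the element, 5 were higher and 4 lower in female mutants, and 5 passed in males, all higher in *Kdm5c* ΔY EpiLCs. Of the 22 members without it in the stretch searched, 7 were higher and 10 lower in females, and 7 were higher and 1 lower in males. Elements outside that stretch were not searched for. Of all genes, 25.4% were higher and 24.7% lower in females, and 4.2% and 3.6% in males. The median log2 fold change in males was 0.36 with the element and 0.43 without it, and in females 0.08 and -0.11. A match is only a run of letters, and binding of ATF4 was not measured.

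The 6 enzymes that make asparagine, alanine, proline and cysteine all changed differently in the sexes. In females, 5 of the 6 fell, beside 24.7% of all genes, and *Aldh18a1* did not pass the test. The median log2 fold change of the 6 was -0.78. In males, 4 rose, beside 4.2% of all genes, with a median of 0.59, and *Pycr1* and *Cbs* did not pass. The interaction term passed for all 6, beside 21.3% of all genes. Their median difference between the male and the female change was 1.27, where the median over all genes was -0.20. That all-gene median also holds the genes with reads in *Kdm5c* fl Y libraries A and C that were silent in the other genotypes.

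*Asns*, asparagine synthetase and a direct target of ATF4, had counts of 1699, 1983 and 1734 in *Kdm5c* fl/fl libraries and 1072, 1054 and 1056 in *Kdm5c* Δ/Δ libraries. In males, it had 689.9, 761 and 733 in *Kdm5c* fl Y and 1238, 1223 and 1309 in *Kdm5c* ΔY libraries. Female mutants were below and male mutants above their controls, with no overlap, and the male mutants lay between the female groups and the male controls below all others. *Asns* fell 1.7-fold in females (-0.76 ± 0.062 SE, adjusted p = 9.99e-09) and rose 1.73-fold in males (0.79 ± 0.11 SE, adjusted p = 0.00349), a difference of 1.55 ± 0.11 SE, adjusted p = 1e-06. It passed in every male fit with a library left out, with an adjusted p of 0.000714 to 0.0326.

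*Cth*, the cystathionine lyase that completes cysteine synthesis, had counts of 444, 489 and 434 in control females, 184, 146 and 198 in mutant females, 148, 119.9 and 145 in control males and 219, 205 and 232 in mutant males. The *Kdm5c* fl/fl libraries lay above all others, and mutants and controls did not overlap in either sex. It was 2.59-fold lower in female mutants (-1.37 ± 0.10 SE, adjusted p = 2.39e-09) and 1.59-fold higher in male mutants (0.67 ± 0.16 SE, adjusted p = 0.0357), and the interaction term was 2.04 ± 0.18 SE, adjusted p = 6.82e-06. *Cbs* catalyses the step before it and was low, with counts of 83.5, 104 and 67.8 in control females, 53.3, 47.1 and 45.5 in mutant females, 71.8, 74.4 and 92 in control males and 77.9, 104 and 82.7 in mutant males. Female mutants were below their controls (-0.78 ± 0.18 SE, adjusted p = 0.00116), the male genotypes overlapped (0.15 ± 0.22 SE, adjusted p = 0.671), and the interaction term of 0.93 ± 0.28 SE, adjusted p = 0.0291 held in 6 of the 12 fits with a library left out, with an adjusted p of 0.0115 to 0.084.

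*Gpt2*, the mitochondrial alanine transaminase, went from 754, 803 and 768 in control to 432, 434 and 389 in mutant females. The male counts were 493, 453 and 474 in *Kdm5c* fl Y and 667, 628 and 719 in *Kdm5c* ΔY libraries. Both sexes were free of overlap, with the mutants lower in females and higher in males. The female change was -0.89 ± 0.066 SE, adjusted p = 3.09e-09, the male change 0.50 ± 0.12 SE, adjusted p = 0.0319, and their difference 1.39 ± 0.12 SE, adjusted p = 4.73e-06.

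Proline synthesis runs through *Aldh18a1* and then *Pycr1*. *Aldh18a1* had counts of 761, 782 and 675 in control females, 731, 657 and 713 in mutant females, 351, 527 and 361 in control males and 680.1, 636 and 632 in mutant males. The female genotypes overlapped (-0.08 ± 0.069 SE, adjusted p = 0.399), and male mutants were above their controls (0.68 ± 0.17 SE, adjusted p = 0.038), with an interaction term of 0.75 ± 0.19 SE, adjusted p = 0.0108. *Pycr1* had counts of 254, 283 and 276 in control females, 164, 188 and 123 in mutant females, 166, 191 and 158 in control males and 205, 229 and 229.6 in mutant males. It was lower in every female mutant (-0.79 ± 0.12 SE, adjusted p = 2.59e-05) and higher in every male mutant library than in its controls, though the male change did not pass the test (0.37 ± 0.15 SE, adjusted p = 0.175). The difference between the sexes was 1.16 ± 0.21 SE, adjusted p = 0.00126, and without both libraries that stood apart the male change was 0.50 (adjusted p = 0.00779).

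Serine synthesis runs through *Phgdh*, *Psat1* and *Psph*, and *Shmt1*, *Shmt2* and *Mthfd2* pass its carbon into the folate pool. Of these 6, *Shmt1* rose and *Shmt2*, *Psat1* and *Mthfd2* fell in females, and *Psat1* and *Mthfd2* rose in males. The shares of all genes were 25.4% higher and 24.7% lower in females, and 4.2% and 3.6% in males. *Mthfd2*, a mitochondrial folate enzyme, had counts of 1373, 1399.9 and 1433 in *Kdm5c* fl/fl libraries and 1038, 1077 and 990.3 in *Kdm5c* Δ/Δ libraries. The male counts were 427, 662 and 424 in *Kdm5c* fl Y and 1063, 972 and 1049.9 in *Kdm5c* ΔY libraries. Male controls were the lowest, with library B above A and C, and no groups of 1 sex overlapped. *Mthfd2* fell in females (-0.44 ± 0.056 SE, adjusted p = 3.05e-06) and rose in males (1.06 ± 0.17 SE, adjusted p = 0.00821), a difference of 1.50 ± 0.19 SE, adjusted p = 0.000116. The male call was lost without *Kdm5c* fl Y library A or C.

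*Psat1*, the transaminase of the pathway, had counts of 3137, 3359.8 and 3355 in control females, 2958, 2959.6 and 2920.5 in mutant females, 1336, 1813 and 1233 in control males and 3004, 1972 and 2319 in mutant males. The female groups were close but separate (-0.16 ± 0.052 SE, adjusted p = 0.0184), and *Kdm5c* ΔY library A was the highest male library. It rose in males (0.73 ± 0.19 SE, adjusted p = 0.0436), in 3 of the 6 fits with a library left out, and not without *Kdm5c* fl Y library A or C or *Kdm5c* ΔY library C. The interaction term was 0.89 ± 0.21 SE, adjusted p = 0.00803. In females, the call was lost without *Kdm5c* fl/fl library B or C or *Kdm5c* Δ/Δ library C.

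The 2 serine hydroxymethyltransferases went different ways in females. *Shmt2*, the mitochondrial one, had counts of 2384, 2647 and 2442 in *Kdm5c* fl/fl libraries and 2142, 2001 and 2018 in *Kdm5c* Δ/Δ libraries, and 1336, 1437 and 1288 in control and 1605, 1668 and 1593 in mutant males. It was lower in all female mutants (-0.28 ± 0.057 SE, adjusted p = 0.000458) and did not pass in males (0.26 ± 0.10 SE, adjusted p = 0.163), and the sexes differed by 0.54 ± 0.11 SE, adjusted p = 0.00285. *Shmt1*, the cytosolic one, had counts of 497, 581 and 535 in control and 853, 871 and 848 in mutant females, and 373, 582 and 412 in control and 557, 641 and 614 in mutant males. Female mutants were above all other libraries (0.68 ± 0.066 SE, adjusted p = 1.08e-07), and the male genotypes overlapped through *Kdm5c* fl Y library B (0.43 ± 0.17 SE, adjusted p = 0.16). Without both libraries that stood apart, *Shmt1* and *Shmt2* also rose in males (0.68, adjusted p = 0.00104, and 0.31, adjusted p = 0.00537). *Phgdh* and *Psph* did not pass in either sex, with log2 fold changes of -0.10 and -0.11 in females and 0.09 and 0.15 in males.

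*Tdh* rose in both sexes, and its change in females was larger than that of any other member. Threonine dehydrogenase is known for high levels in mouse ESCs. Its counts were 59.4, 59.3 and 52.3 in *Kdm5c* fl/fl libraries and 989, 885 and 909 in *Kdm5c* Δ/Δ libraries, a 16-fold rise (4.00 ± 0.088 SE, adjusted p = 2.87e-16). In males, they were 70.8, 325 and 70.4 in *Kdm5c* fl Y and 312, 565 and 569 in *Kdm5c* ΔY libraries. The female groups lay far apart, whereas *Kdm5c* fl Y library B was above *Kdm5c* ΔY library A, so that the male groups overlapped. The male log2 fold change was 1.97 ± 0.52 SE, adjusted p = 0.0495, and it passed in 2 of the 6 fits with a library left out, those without *Kdm5c* fl Y library B (2.70) or *Kdm5c* ΔY library A. Without both, it was 2.99 (adjusted p = 1.15e-05). The male call was also lost with limma voom, with a pseudocount of 0.1 and with a minimum mean of 10. The interaction term of -2.03 ± 0.61 SE, adjusted p = 0.0298 held in 6 of 12 such fits, with an adjusted p of 0.007 to 0.0655, and was -1.30 without *Kdm5c* fl Y library B and -1.02 (adjusted p = 6.36e-05) without both libraries. The same libraries differed in naive pluripotency genes, though not all in the direction of *Tdh*. *Zfp42* and *Dppa3* of the naive list were highest in *Kdm5c* ΔY library A. They had 1318 and 359 there, against 1084 and 1105 and 229 and 255 in libraries B and C. *Tfcp2l1* was not raised in *Kdm5c* fl Y library B, at 448 against 468 and 467 in A and C. *Esrrb*, a naive transcription factor, had counts of 234, 235 and 241 in control females, 1020.3, 936 and 987 in mutant females, 261, 673 and 267 in control males and 887, 1898 and 1907 in mutant males, and its part in the result was not tested. *Gldc*, the decarboxylase of the glycine cleavage system, rose in females (0.27 ± 0.055 SE, adjusted p = 0.000454) from 1822, 1891 and 1809 in controls to 2304, 2102 and 2249 in mutants. Its male genotypes overlapped, with 1972, 2512 and 1956 in *Kdm5c* fl Y and 1447, 2053 and 2008 in *Kdm5c* ΔY libraries (-0.23 ± 0.16 SE, adjusted p = 0.386).

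Among the 8 transporters, *Slc38a2*, *Slc7a1*, *Slc1a4* and *Slc3a2* rose and *Slc6a9*, *Slc7a5* and *Slc7a3* fell in females, and *Slc3a2* rose in males. Beside this mixed split, 25.4% of all genes were higher and 24.7% lower in females, and 4.2% and 3.6% in males. *Slc38a2* encodes SNAT2, a carrier of small neutral amino acids that is induced on starvation. It had counts of 1949, 2096 and 1999 in *Kdm5c* fl/fl libraries and 4916, 4834 and 5063 in *Kdm5c* Δ/Δ libraries, a 2.45-fold rise (1.29 ± 0.053 SE, adjusted p = 9.24e-13). In males, it had 2611, 4822 and 2670.2 in *Kdm5c* fl Y and 4383, 2825 and 2999 in *Kdm5c* ΔY libraries. *Kdm5c* fl Y library B and *Kdm5c* ΔY library A were the highest of their genotypes, and the groups overlapped (0.05 ± 0.25 SE, adjusted p = 0.913). The sexes differed by -1.25 ± 0.28 SE, adjusted p = 0.00672.

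*Slc7a1*, the carrier of arginine and lysine, had counts of 766, 731 and 723 in control females, 1624, 1579 and 1704 in mutant females, 613, 805 and 622 in control males and 831, 1190 and 1198 in mutant males. Female mutants were above every other library, with a 2.21-fold rise (1.14 ± 0.057 SE, adjusted p = 1.38e-11), and all male mutants were above their controls without passing the test (0.65 ± 0.17 SE, adjusted p = 0.0515). It passed in males without both libraries that stood apart (0.95, adjusted p = 8.66e-05). *Slc7a3*, another cationic carrier, had 1259, 1509 and 1293 in control females, 1107, 1072 and 1118 in mutant females, 778, 1106 and 753 in control males and 986, 447 and 435 in mutant males. It fell in females (-0.30 ± 0.066 SE, adjusted p = 0.00102), and in males libraries B and C of the mutants were the lowest of all while library A lay among the controls (-0.58 ± 0.29 SE, adjusted p = 0.249). Without both libraries that stood apart, it fell in males (-0.79, adjusted p = 0.00026).

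*Slc6a9*, a glycine carrier, had counts of 96.6, 84.5 and 88.9 in control females, 54.9, 46.3 and 63.7 in mutant females, 58.8, 74.4 and 60.4 in control males and 95.8, 74 and 91 in mutant males. It was lower in all female mutants (-0.71 ± 0.16 SE, adjusted p = 0.00103), overlapped narrowly in males (0.42 ± 0.22 SE, adjusted p = 0.271) and differed between the sexes by 1.14 ± 0.26 SE, adjusted p = 0.00629. *Slc1a4* carries alanine, serine and cysteine, and its counts were 285, 321 and 277 in control females, 371, 376 and 355 in mutant females, 251, 328 and 243 in control males and 535, 356 and 393 in mutant males. Mutants were above controls in both sexes, a rise in females (0.32 ± 0.078 SE, adjusted p = 0.0019), while the male change did not pass (0.63 ± 0.19 SE, adjusted p = 0.071) except without *Kdm5c* fl Y library B and *Kdm5c* ΔY library A together (0.60, adjusted p = 0.00284) or in 1 of the fits with 1 library left out.

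*Slc3a2*, the heavy chain that *Slc7a5* and *Slc7a11* need at the cell surface, rose in females (0.18 ± 0.064 SE, adjusted p = 0.0304) and in males (0.48 ± 0.11 SE, adjusted p = 0.033). Its counts were 1628 to 1664 in *Kdm5c* fl/fl, 1679 to 2039 in *Kdm5c* Δ/Δ, 1089.7 to 1239.6 in *Kdm5c* fl Y and 1506 to 1698 in *Kdm5c* ΔY libraries. The female call held in 1 of the 6 fits with a library left out, that without *Kdm5c* Δ/Δ library C, with an adjusted p of 0.00501 to 0.163, and the male call in 2 of the 6. *Slc7a5*, the leucine carrier LAT1, fell in females (-0.40 ± 0.068 SE, adjusted p = 6.93e-05) and did not pass in males (-0.34 ± 0.16 SE, adjusted p = 0.232). *Slc7a11*, the cystine carrier, did not pass in either sex (0.17 and 0.11) and ranged from 804 to 1640.2 over the 12 libraries.

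The 10 tRNA synthetases had a median log2 fold change of -0.02 in females, where *Tars* and *Wars* rose while *Sars*, *Eprs* and *Yars* fell. These female calls, 2 of 10 higher and 3 of 10 lower, lay near the shares of all genes, 25.4% and 24.7%. In males the median was 0.34, and *Sars* and *Aars* rose, beside 4.2% of all genes. The male calls of *Sars* and of *Psat1* were lost with limma voom. *Sars*, the seryl enzyme, had counts of 2807, 2963 and 2878 in control females, 2215, 2187 and 2245 in mutant females, 1458, 1754 and 1472 in control males and 2223, 2043 and 2095 in mutant males. Mutants were below controls in females (-0.38 ± 0.051 SE, adjusted p = 6.01e-06) and above them in males (0.45 ± 0.12 SE, adjusted p = 0.0477), with no overlap, and the interaction term was 0.82 ± 0.12 SE, adjusted p = 0.000269. *Aars*, the alanyl enzyme, had 3563, 3935 and 3981 in control females, 3631, 3719 and 3787 in mutant females, 2170.4, 2919.6 and 2150 in control males and 3664, 3397 and 3699.9 in mutant males. The female genotypes overlapped (-0.04 ± 0.056 SE, adjusted p = 0.569), all male mutants were above their controls (0.59 ± 0.14 SE, adjusted p = 0.0352), and the sexes differed by 0.63 ± 0.15 SE, adjusted p = 0.0097. *Wars*, the tryptophanyl enzyme, went the other way, with counts of 789.7, 884 and 832 in control females, 1158, 1076 and 1065 in mutant females, 631, 814 and 655 in control males and 612, 597 and 603 in mutant males. It was higher in every female mutant (0.40 ± 0.062 SE, adjusted p = 2.78e-05) and lower than its controls in every male mutant, without passing (-0.20 ± 0.13 SE, adjusted p = 0.345), and the interaction term was -0.60 ± 0.14 SE, adjusted p = 0.0067.

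The other female changes of synthetases were a rise of 0.49 for *Tars* and log2 fold changes of -0.30 for *Eprs* and -0.22 for *Yars*. *Gars*, *Iars*, *Mars* and *Nars* did not pass in either sex, with log2 fold changes of -0.10, -0.0043, 0.05 and 0.03 in females and 0.32, 0.36, 0.51 and 0.45 in males. Without *Kdm5c* fl Y library B and *Kdm5c* ΔY library A, 8 of the 10 synthetases were higher and *Eprs* was lower in males, beside 17.7% and 25.3% of all genes.

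The levels of the 4 genotypes could be set side by side, since both tables share 1 normalization, with size factors 0.988 to 0.999 times the median-of-ratios factors over all 12 libraries. Control males and control females differed for 26 of the 43 members, of which 25 were lower and 1, *Slc38a2*, was higher in *Kdm5c* fl Y EpiLCs. Of all genes, 9.69% were lower and 11.8% higher. The median log2 difference was -0.57 for the members and 0.17 for all genes. These all-gene values again include the genes with reads in *Kdm5c* fl Y libraries A and C that were silent in the other genotypes. *Atf4* differed most, at -1.73 ± 0.11 SE, adjusted p = 2.38e-07, a 3.31-fold lower level in males. *Cth* (-1.72), *Mthfd2* (-1.51), *Chac1* (-1.39), *Asns* (-1.31) and *Psat1* (-1.19) followed. By role, 5 of 6 serine and one-carbon enzymes, 5 of 6 enzymes of asparagine, alanine, proline and cysteine synthesis, 8 of 10 synthetases and 6 of 11 regulators were lower in control males, and so was 1 of 8 transporters, *Slc3a2*. Without *Kdm5c* fl Y library B and *Kdm5c* ΔY library A, 34 members were lower and 3, *Ddit3*, *Tdh* and *Slc38a2*, were higher in control males, beside 19% and 29.8% of all genes. The lower members then included all 10 synthetases and 6 of 8 transporters. The calls of *Nupr1*, *Yars*, *Eprs* and *Slc38a2* were lost in 4 or 5 of the 12 fits with a library left out, that of *Slc38a2* among others without *Kdm5c* fl Y library B. The call of *Nupr1* was also lost with limma voom. The comparison shares the control libraries with the comparisons of mutants, and lines of control males and control females also differed in the markers above.

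**Figure D4:**
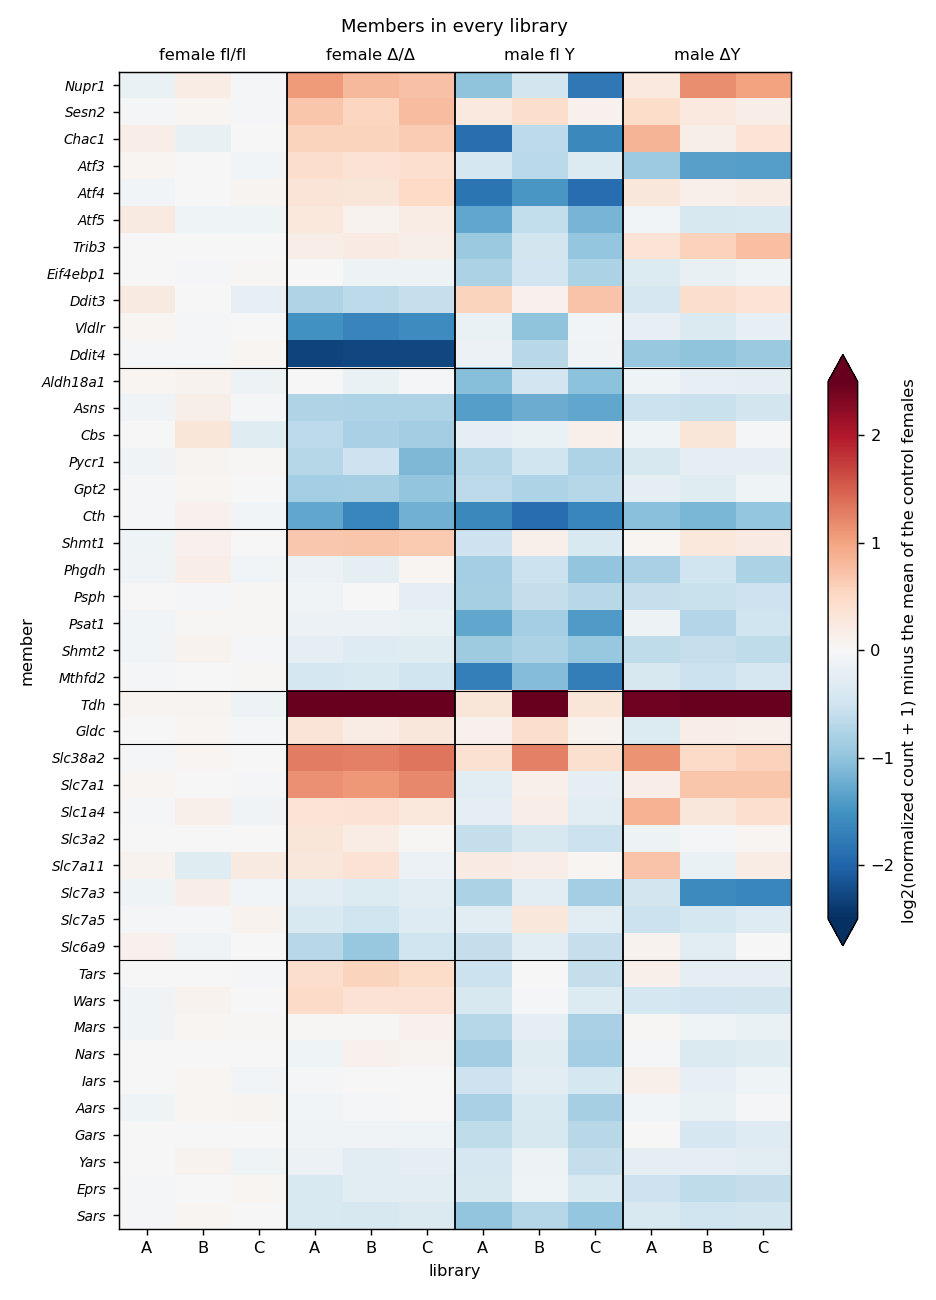
Level of the 43 members (rows, by role) in each of the 12 libraries (columns, grouped by genotype), as log2(normalized count + 1) minus the mean of the *Kdm5c* fl/fl libraries, with colours cut off at 2.5 in either direction. The *Kdm5c* fl Y columns are mostly blue, most deeply in libraries A and C, and *Tdh* is deep red in all mutants and in *Kdm5c* fl Y library B.

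Per kilobase of exon, levels can also be compared between members. In *Kdm5c* fl/fl EpiLCs, the normalized count per kilobase was highest for *Ddit4* (6203), *Eif4ebp1* (2224) and *Gars* (1752) and lowest for *Slc6a9* (17.5), *Nupr1* (19.4) and *Tdh* (21.8). *Tdh* reached 355 per kilobase in *Kdm5c* Δ/Δ and 184 in *Kdm5c* ΔY EpiLCs. *Atf4* stood at 988, 1285, 301 and 1132 per kilobase in the 4 genotypes.

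A further 99 genes of the pathway were listed beside the members, and 96 of them could be solved for reads in all libraries and were tested. *Hsp90b1*, *Lars2* and *Odc1* were not among the solved genes, and the counts below leave them out. In females 33 of the 96 were higher and 29 lower, beside 25.4% and 24.7% of all genes, and in males 6 were higher and 3 lower, beside 4.2% and 3.6%. In males without *Kdm5c* fl Y library B and *Kdm5c* ΔY library A, 33 were higher and 15 lower, beside 17.7% and 25.3% of all genes. The 7 genes for eIF2 alpha, its kinases and its phosphatase subunits, which sit upstream of *Atf4*, held 2 that rose in females, *Eif2ak1* (1.06) and *Ppp1r15a* (1.09), and 2 that fell, *Eif2ak4* (-0.51) and *Ppp1r15b* (-0.32). By limma 0 of the 7 passed in males, 2 had an unadjusted p under 0.05, and 0 passed with limma voom. Without both libraries that stood apart, *Ppp1r15b*, *Eif2ak4* and *Eif2ak1* were higher in male mutants. *Cebpb*, which encodes a partner of ATF4, rose in males (1.93 ± 0.32 SE, adjusted p = 0.00905), with counts of 63.8, 80.6 and 57.5 in *Kdm5c* fl Y and 144, 344 and 342 in *Kdm5c* ΔY libraries, and all mutants were above the controls. In females its counts overlapped, at 138 to 165 and 139 to 151 (-0.05 ± 0.11 SE, adjusted p = 0.737).

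The unfolded protein response has further branches besides the one through *Atf4*. Of 10 genes of these branches, 7 changed in females, all higher in the mutant, beside 25.4% of all genes higher and 24.7% lower. Among the 7 were the chaperone gene *Hspa5* (0.58) and *Calr* (0.32). In males 0 passed by limma, beside 4.2% and 3.6% of all genes, while 2 had an unadjusted p under 0.05 and 1 passed with limma voom. Without both libraries that stood apart, 2 rose and 4 fell in males, beside 17.7% and 25.3% of all genes. Of 10 other targets of ATF4, *Gadd45a* and *Rgs16* rose and *Ndrg1*, *Stc2*, *Jdp2*, *Sqstm1* and *Gdf15* fell in females, and *Gadd45a* and *Sqstm1* rose in males. *Gadd45a*, a stress gene that p53 also induces, was higher in both mutants (1.06 and 1.19). *Ndrg1*, which hypoxia induces as it does *Ddit4*, fell from 1089, 1121 and 1099.5 in *Kdm5c* fl/fl to 128, 127 and 135 in *Kdm5c* Δ/Δ libraries (-3.08 ± 0.069 SE, adjusted p = 3.25e-16). In males the libraries that stood apart were the lowest of their genotypes, with 980, 399 and 983 in *Kdm5c* fl Y and 537, 1689 and 1408 in *Kdm5c* ΔY EpiLCs.

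Among enzymes and transporters outside the members, *Slc1a5*, a glutamine carrier, had counts of 1257, 1371 and 1399 in control females, 966, 939 and 926 in mutant females, 580.2, 569 and 552 in control males and 1125, 1217 and 1249 in mutant males. Female mutants were below and male mutants above their controls (-0.51 ± 0.058 SE, adjusted p = 8.57e-07 and 1.08 ± 0.11 SE, adjusted p = 0.000821). *Glul*, glutamine synthetase, did the reverse, with a rise in females (1.03 ± 0.059 SE, adjusted p = 9.45e-11) and a fall in males (-0.94 ± 0.23 SE, adjusted p = 0.0393). Its counts were 2137, 1931 and 1898 in control females, 4176, 3839 and 4188 in mutant females, 4616, 4174 and 3905 in control males and 1434, 2949 and 2531 in mutant males. *Ass1*, argininosuccinate synthase, and *Cars*, the cysteinyl enzyme, also rose in males (1.03 and 0.65), and *Slc1a3* and the mitochondrial synthetase gene *Iars2* fell (-1.46 and -0.48). Of the 16 mitochondrial synthetases tested, 6 rose and 3 fell in females, and *Iars2* was the 1 that passed in males. Of all genes, 25.4% were higher and 24.7% lower in females, as a reference for this list and those that follow. Of 10 other cytosolic synthetases, *Hars* rose and *Vars*, *Lars* and *Cars* fell in females. Over the whole lists, 4 of 16 other amino acid enzymes rose and 8 fell in females, and 6 of 11 other transporters rose and 4 fell. Of 13 further genes of folate metabolism and glycine cleavage, 4 rose and 3 fell in females, among them *Mat2a* (1.30), which makes S-adenosylmethionine, and *Mthfd1l* (-0.53). By limma 0 of the 13 passed in males, where 3 had an unadjusted p under 0.05 and 0 passed with limma voom. Without both libraries that stood apart, 4 rose and 3 fell in males, beside 17.7% and 25.3% of all genes. Of the 4 partners of ATF4, *Nfe2l2* rose and *Jund* fell in females.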

How the data were processed

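RNA-Seq of EpiLCs was performed with 3 libraries for each of 4 genotypes. Per the study's methods, ribosomal RNA was removed from total RNA, and single-end reads of 50 bp were mapped to mm9, of which uniquely mapped reads were kept, so that reads shared with near-identical copies of a gene are not counted. The submitters' processing notes list TopHat2 2.1.0, Bowtie2 2.2.6.0, DESeq and Cuffdiff, and the gene annotation is not given in the sources used here. The authors deposited 2 tables, 1 per sex, whose signal columns hold the mean normalized count of each genotype. The tables also hold the authors' own fold changes and p-values, which were not used.

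A deposited mean is the average of 3 normalized counts, and each of those is a whole number of reads over a size factor. Genes with means not above 11000 were solved for these reads, with 1 solution for each of 22827 of 22911 genes in all 12 libraries, and on simulated data 100% of 3000 genes were right and 0 of 1000 decoys were solved. Reads can be PCR copies, so the depth covers counting error only.

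Limma 3.58.1 (R 4.3.3) was fitted with a trend to log2(normalized count + 1) of genes with at least 1 read, within each sex, and over all 12 libraries for the interaction of sex and genotype and for control males against control females. Benjamini-Hochberg adjustment ran over all genes tested, with a threshold of 0.05. An exact permutation test of 3 libraries against 3 cannot go below p = 0.10 and is not printed per gene. The fit was tested on simulated data in which 200 genes were changed. It recovered 94.5% at the female spread (89% at 2-fold and 100% at 4-fold) and 87% at the male spread (75% and 99%), and 4.55% and 4.92% of its calls were false. The simulation gave all genes of a sex 1 spread, drew each gene independently and held no libraries that stood apart. These rates therefore check the fit and are not the power or error rate of the real data.

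Alternatives were a minimum mean of 10, limma voom, a pseudocount of 0.1, size factors worked out again, each library left out, and the male fit without *Kdm5c* fl Y library B and *Kdm5c* ΔY library A. Exon lengths were those of gencode vM1 on mm9. Members with an adjusted p under 0.05 in either sex and a log2 fold change of at least 0.5, or with an interaction adjusted p under 0.05, and *Atf4*, *Atf5*, *Atf3* and *Ddit3*, were named with every library (30 members). The values of other members were described by range and count, and library values of *Gldc* and of genes that are no members were added after they had been seen. Some listed items are not reported here by name or sequence. The members, lists and alternatives were chosen with earlier results of these data known. Python 3.11.15, numpy 2.4.6, pandas 2.3.3 and matplotlib 3.10.9 were used.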

Additional observations from a re-analysis of the deposited data

Results flagged for a closer look

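The change from control to mutant differed between males and females for 23 members, by limma's interaction term over all 12 libraries at an adjusted p under 0.05. Of all genes tested, 21.3% passed this test. Each value below is the male minus the female log2 fold change. Among enzymes, it was 2.04 for *Cth*, 1.55 for *Asns*, 1.50 for *Mthfd2*, 1.39 for *Gpt2*, 1.16 for *Pycr1*, 0.93 for *Cbs*, 0.89 for *Psat1*, 0.75 for *Aldh18a1* and 0.54 for *Shmt2*. For *Tdh*, which was higher in both mutants, it was -2.03. Among regulators, it was 1.74 for *Vldlr*, 1.64 for *Ddit4*, 1.55 for *Atf4*, 1.26 for *Chac1*, 1.17 for *Trib3* and 0.54 for *Eif4ebp1*, and -1.13 for *Atf3* and -0.64 for *Sesn2*. The transporters *Slc6a9* and *Slc38a2* had 1.14 and -1.25, and the synthetases *Sars*, *Aars* and *Wars* had 0.82, 0.63 and -0.60. Of these 23, 20 passed whichever of the 12 libraries was left out, and *Tdh*, *Cbs* and *Chac1* did not. Without *Kdm5c* fl Y library B and *Kdm5c* ΔY library A, all 23 kept their direction and passed the test, with *Tdh* at -1.02. In that fit, 45.7% of all genes passed. Passing there is no independent support, because these libraries were left out for standing apart. The levels of control males and control females both enter the interaction term. They differed for 26 of the 43 members, where 9.69% of all genes were lower and 11.8% higher in control males.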

How the results depend on the processing

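No paired analysis was possible because the libraries worked out from the group means carry no replicate numbers.

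In males, 1706 genes and 15 members passed the test with all libraries. Without *Kdm5c* fl Y library B and *Kdm5c* ΔY library A, 9373 genes and 31 members passed, and 36 members, against 23, changed differently between the sexes. With 1 library left out, 333 to 4692 genes and 3 to 23 members passed in males. These fits keep 2 control libraries with reads on otherwise silent genes when *Kdm5c* fl Y library B is out. The fit with all libraries holds them too. Counts and medians over all genes therefore include such genes, while all members have reads in every library. In females, 9812 genes passed, and 8823 to 9158 with a library left out.

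No named member that passed the test changed direction under any of these settings. Limma voom, a minimum mean of 10, a pseudocount of 0.1 and recomputed size factors left all 30 named members on the same side of the threshold in females. In males, 27, 28, 29 and 30 of them stayed on their side, in that order of settings. Those that crossed were *Tdh*, *Psat1*, *Sars* and *Eif4ebp1*, and the male call of *Tdh* had an adjusted p of 0.0495. Among genes simulated at the male spread with 2-fold changes, 75% were found, so smaller male changes of members may have been missed. That simulation held no libraries that stood apart, so the share found in the real male data is not known.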
